A study of Mus musculus with 94 samples.

Results

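The genes described here are the ELR chemokine genes Cxcl1, Cxcl2, Cxcl3, Cxcl5 and Ppbp, their receptor gene Cxcr2, the chemokine gene Cxcl12 and its receptor genes Cxcr4 and Ackr3. They are 9 of the 49080 genes in the expression table, chosen by symbol as the neutrophil-attracting arm of the CXC chemokines and the axis that opposes it. The choice by symbol uses no measured value, although earlier results of these data were known when it was made. RNA was sequenced from 94 4T1 tumors. 4T1 is a mammary carcinoma line of the mouse used to model triple-negative breast cancer, and here it was implanted under the skin of the right hind limb of female BALB/c mice at 8 weeks of age. The 25 irradiated tumors received a single dose of 6 Gy (6 Gy), 25 came from mice given indomethacin, an NSAID that inhibits COX1 and COX2, at 30 mg/L in drinking water (INDO), 24 received both (6 Gy + INDO), and 20 were untreated controls that carried the same tumor. Tumors were taken on days 1, 3, 7, 15 and 23, with 5 tumors in each treated group apart from 4 given 6 Gy + INDO on day 3, and with 4, 5, 5, 3 and 3 untreated controls on those days. The paper counts days from irradiation, which in its growth experiment came on day 7 after tumor injection. It housed mice 5 per cage and does not say how cages fell among treatments. Each tumor is 1 piece of mixed tissue from 1 implanted line, so fewer cells of a type and less RNA per cell cannot be told apart in any value below.

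ELR chemokines carry the residues Glu-Leu-Arg before their first cysteine pair, and this motif lets them bind CXCR2, a receptor that drives neutrophils out of the marrow and along a gradient into tissue. Their genes lie side by side in mouse and human and are switched on quickly by IL-1, TNF and IL-17 through NF-κB. CXCL12, made mainly by fibroblasts, pericytes, endothelium and fat stroma, binds CXCR4 and holds neutrophils in the marrow, so that CXCR2 and CXCR4 pull on the same cells in opposite directions. ACKR3 binds CXCL12 without the usual G protein signal and takes it up. Ppbp encodes the precursor of CXCL7, which platelets carry in their granules.

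In the mm10 (GRCm38) genome, the 5 ELR chemokine genes lie within 146.6 kb of chromosome 5, from 90759360 to 90905938, in the order Cxcl5, Ppbp, Cxcl3, Cxcl1 and Cxcl2, all on the plus strand. Cxcr2 (chr1:74153989-74161246), Ackr3 (chr1:90203980-90216751) and Cxcr4 (chr1:128588199-128592293, minus strand) are on chromosome 1, and Cxcl12 (chr6:117168535-117181367) is on chromosome 6. All 9 are annotated as protein coding. Levels are CPM, read counts scaled to TMM library sizes, and between genes they were compared only per kilobase of annotated exon. On that scale the mean over all 94 tumors was highest for Cxcl1, at 30.2 CPM per kb, followed by Ackr3 (13.9), Cxcl5 (10.9), Cxcl2 (9.78), Cxcr4 (8.48), Cxcr2 (4.79), Cxcl3 (1.78), Cxcl12 (1.64) and Ppbp (0.917). The exon lengths join all annotated transcripts of a gene, 3.5 kb for Cxcl3 and 8.18 kb for Cxcl12, which lowers the value of genes with long or retained sequence. No member was at 0 in any tumor. The lowest count was 2 reads for Ppbp and 13 reads for Cxcl3, and the members other than these had at least 33 reads in every tumor.

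Of the 9 genes, 8 had an entry in the RefSeq promoter table (GRCm38.p6), which gives 250 bases before each start site; Cxcl5 was the exception. The promoters of Cxcl1, Cxcl2 and Cxcl3 share a run of 11 bases, GGGAATTTCCC, printed in capitals in the 80 bases from position −120 to −41, where −1 is the base just before the RefSeq start. These 3 windows are shown because they are the member promoters that hold the run.
Cxcl1 promoter, chr5:90891125-90891204 (+ strand): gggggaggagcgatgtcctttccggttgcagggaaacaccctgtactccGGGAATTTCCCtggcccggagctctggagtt
Cxcl2 promoter, chr5:90903779-90903858 (+ strand): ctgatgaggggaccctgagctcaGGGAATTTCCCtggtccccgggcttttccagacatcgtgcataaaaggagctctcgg
Cxcl3 promoter, chr5:90785981-90786060 (+ strand): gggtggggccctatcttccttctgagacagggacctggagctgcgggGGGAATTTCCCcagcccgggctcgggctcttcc
The run begins at −71 in Cxcl1, −97 in Cxcl2 and −73 in Cxcl3. It is a κB-type sequence, the class of sequence that NF-κB dimers bind, and was found on either strand in 14 of 32851 promoters of the table (0.0426%). The run was picked because these 3 promoters share it, so its presence in 3 of the 8 member promoters was fixed by the search. The promoters of Ppbp, Cxcr2, Cxcl12, Cxcr4 and Ackr3 do not hold these letters in the windows searched. The match is a description of sequence, and no binding was measured.

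The expression table held 21 M to 109.3 M counts per tumor (M, megacounts), with medians of 66.6 M after 6 Gy, 41.05 M under INDO and 37.5 M under 6 Gy + INDO, against 73.4 M in untreated controls. Markers of tumor epithelium, the labelled cell type, summed to 1870 to 5010 CPM, and none of the 8 was at 0 in all tumors. In 11 tumors, reads on olfactory and vomeronasal receptor genes reached 338 to 1648 CPM, against 41.3 to 147 CPM in the others. They were 8 of the 6 Gy + INDO tumors (3 of 4 on day 3, 3 of 5 on day 7 and 2 of 5 on day 23), 2 INDO tumors and 1 untreated control. Counts in rRNA and other structural RNA genes had medians on day 1 of 10.5% after 6 Gy, 15.1% under INDO and 16.2% under 6 Gy + INDO, against 5.80% in untreated controls, and the part of this share in the results of day 1 was not tested. A gene was called when edgeR's quasi-likelihood test gave a Benjamini-Hochberg adjusted p under 0.05 over all genes tested. Values after ± are SEs for log2 fold changes and SDs for levels. The p-values measure the spread between tumors of a group, and the 3 comparisons of a day share its untreated controls.

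Over the 9 genes and 15 comparisons with untreated controls within a day, 33 of 135 values were called, and each was lower in the treated tumors. They lay on the first 3 time points: 20 of 27 values on day 1, 6 of 27 on day 3 and 7 of 27 on day 7. On day 1, 5 members fell after 6 Gy, where 6.15% of all genes tested were called higher and 9.43% lower. Under INDO, 9 of 9 fell on that day, beside a background in which 5.81% of all genes tested were called higher and 8.89% lower. Under the combination 6 members fell on day 1 (10.7% of all genes tested were higher and 13.3% lower). The median log2 fold change of the 9 genes on day 1 was -1.09 after 6 Gy, -1.55 under INDO and -1.68 under 6 Gy + INDO, beside 0.06, 0.04 and 0.02 over all genes tested.

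On day 3, 1 member fell after 6 Gy (3.62% of all genes higher, 4.1% lower), 1 under INDO (2.38% higher, 3.95% lower) and 4 under 6 Gy + INDO (10.1% higher, 9.43% lower). On day 7 the counts were 2 after 6 Gy (5.69% of all genes higher, 10.3% lower), 2 under INDO (12.7% higher, 11.7% lower) and 3 under 6 Gy + INDO (24.8% higher, 21.2% lower); these are small counts beside such shares. On days 15 and 23, with 3 untreated controls each, edgeR called 0 of the 54 values. Unadjusted p under 0.05 was reached by 4 members under INDO on day 15 (Cxcl2, Cxcl3, Cxcr2 and Ackr3, each lower) and by Cxcl12 on day 23, after 6 Gy and under INDO, and DESeq2 called 1 value, Cxcl12 after 6 Gy on day 23. The background on those days was as thin: 0% of genes higher and 0% lower after 6 Gy on day 15, 0% and 0% under INDO, and 0.778% and 0.552% under 6 Gy + INDO. On day 23 it was 0% and 0% after 6 Gy, 0% and 0% under INDO, and 0% and 0.00473% with the combination. Unadjusted p under 0.05 was then reached by 1430 to 5418 genes in a comparison, and DESeq2 called 28 to 1774, so the later days say little of any of these genes.

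**Figure D1:**
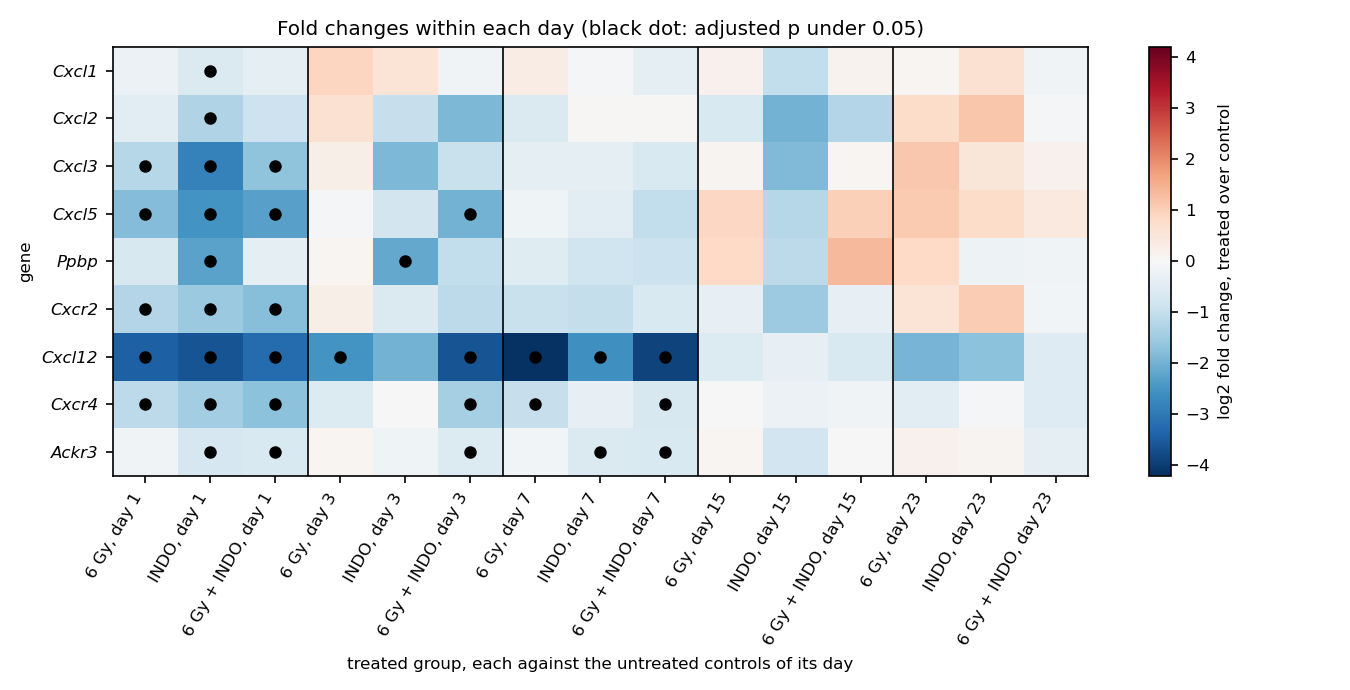
Log2 fold change of each of the 9 genes (rows) in each treated group over the untreated controls of its day (columns, 3 treatments within each of 5 days), with blue for lower in treated tumors and a black dot for an adjusted p under 0.05. The 33 dots lie on days 1, 3 and 7 and all are in blue cells, 8 of them in the row of Cxcl12.

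Cxcl12 showed the widest gap. It fell in every treated group on days 1 and 7 and in 2 of 3 on day 3. On day 1, Cxcl12 had 7.01, 1.38, 4.06, 5.29 and 6.401 CPM in 6 Gy tumors, 2.85, 1.68, 1.86, 9.13 and 5.22 CPM in INDO tumors and 4.21, 4.59, 4.16, 5.74 and 8.82 CPM in 6 Gy + INDO tumors, against 63.8, 33.7, 65.4 and 46.9 CPM in untreated controls. No treated tumor of day 1 reached 10 CPM, and the untreated controls began at 33.7 CPM. Group means were 4.83 ± 2.23 CPM after 6 Gy, 4.15 ± 3.12 CPM under INDO and 5.503 ± 1.96 CPM under 6 Gy + INDO, against 52.5 ± 15.1 CPM in untreated controls (SD, n = 5, 5, 5 and 4). They were 10.9-fold lower after 6 Gy, 12.6-fold lower under INDO and 9.53-fold lower with the combination, and the log2 fold changes were -3.43 ± 0.48 (adjusted p = 9.27e-05), -3.61 ± 0.48 (adjusted p = 6.27e-05) and -3.25 ± 0.47 (adjusted p = 8.93e-05) in that order.

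On day 3, Cxcl12 had 9.54, 3.78, 8.101, 8.04 and 8.44 CPM in 6 Gy tumors, 8.67, 1.77, 38.7, 2.83 and 3.12 CPM in INDO tumors and 3.99, 3.49, 2.48 and 3.71 CPM in 6 Gy + INDO tumors, against 65.1, 55.7, 40.7, 37.3 and 17.8 CPM in untreated controls. The 6 Gy and 6 Gy + INDO tumors all lay below the untreated controls, while 1 INDO tumor, replicate 3, stood at 38.7 CPM among the controls. Log2 fold changes were -2.51 ± 0.64 (adjusted p = 0.0243) after 6 Gy, -1.97 ± 0.63 (adjusted p = 0.0657) under INDO and -3.63 ± 0.75 (adjusted p = 0.00394) under 6 Gy + INDO. The INDO value rested on that tumor: without it the log2 fold change was -3.37 (adjusted p = 0.000807). The 6 Gy call was lost, at adjusted p of 0.0512 to 0.0699, when any 1 of 6 Gy replicates 2, 3 and 5 or control replicate 1 was left out. The combination's value was -4.10 (adjusted p = 0.304) without the 3 tumors high in receptor reads, which left 1 tumor.

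On day 7, Cxcl12 had 4.24, 4.55, 4.82, 3.55 and 4.02 CPM in 6 Gy tumors, 6.02, 9.59, 3.63, 27.9 and 14.2 CPM in INDO tumors and 6.07, 3.01, 7.83, 3.52 and 3.68 CPM in 6 Gy + INDO tumors, against 103, 54.5, 101, 25.4 and 95.02 CPM in untreated controls. All 6 Gy and 6 Gy + INDO tumors lay below the lowest control, and 1 INDO tumor, at 27.9 CPM, overlapped it. The fall was 17.9-fold after 6 Gy and 15.7-fold under 6 Gy + INDO in the group means, with log2 fold changes of -4.17 ± 0.49 (adjusted p = 4.07e-05) after 6 Gy, -2.56 ± 0.46 (adjusted p = 0.00157) under INDO and -3.90 ± 0.49 (adjusted p = 2.85e-05) under 6 Gy + INDO.

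By day 15 the untreated controls themselves were low. Cxcl12 then had 7.14, 1.86, 3.94, 3.21 and 7.72 CPM in 6 Gy tumors, 4.78, 4.24, 3.67, 4.71 and 9.94 CPM in INDO tumors and 8.62, 2.78, 5.27, 3.37 and 2.64 CPM in 6 Gy + INDO tumors, against 11.9, 6.56 and 2.21 CPM in untreated controls, and all groups overlapped. On day 23 it had 2.55, 1.75, 2.06, 1.92 and 2.14 CPM in 6 Gy tumors, 0.991, 3.33, 3.11, 2.002 and 2.81 CPM in INDO tumors and 14.1, 2.61, 4.41, 2.86 and 3.32 CPM in 6 Gy + INDO tumors, against 8.66, 11.1 and 4.64 CPM in untreated controls. The 6 Gy and INDO tumors of day 23 lay below all 3 controls, but neither comparison was called (-1.96 ± 0.48, adjusted p = 0.302 and -1.72 ± 0.48, adjusted p = 0.311).

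**Figure D2:**
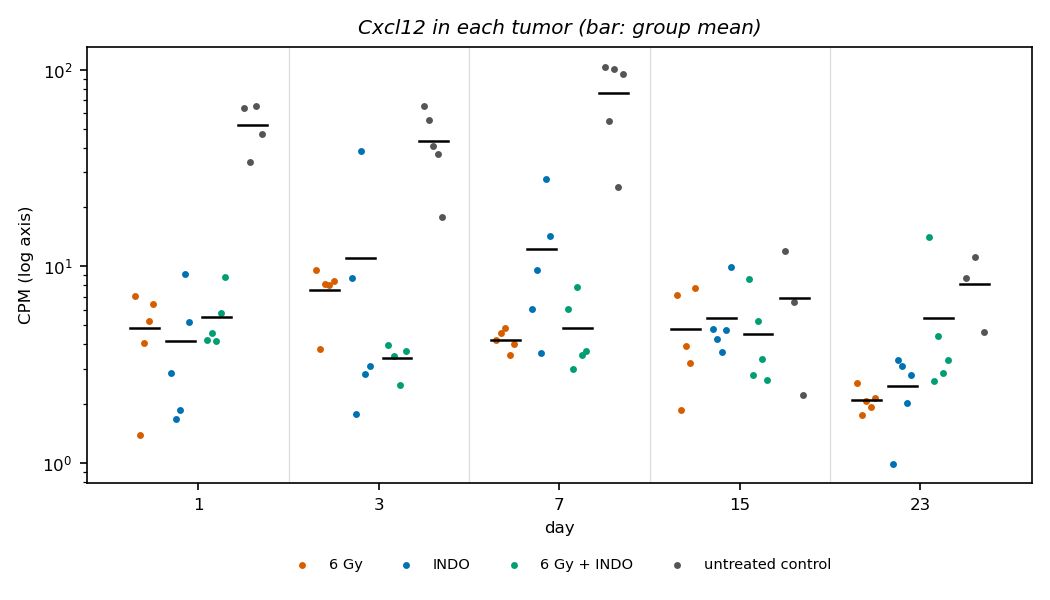
Cxcl12 level of each of the 94 tumors (points, CPM on a log axis) by day, with 6 Gy, INDO, 6 Gy + INDO and untreated control tumors from left to right within a day and a black bar at each group mean. Untreated controls average 52.5, 43.3 and 75.8 CPM on days 1, 3 and 7 and 6.89 and 8.15 CPM on days 15 and 23, where they overlap or nearly meet the treated tumors.

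Cxcl12 differed among days in untreated controls (adjusted p = 2.08e-05) and under INDO (adjusted p = 0.00123), and did not pass the test after 6 Gy (adjusted p = 0.0782) or under 6 Gy + INDO (adjusted p = 0.796). The share of all genes called in that test was 23.3% after 6 Gy, 25.9% under INDO, 43.6% under 6 Gy + INDO and 30.2% in untreated controls. The INDO call among days was lost without day 23 (adjusted p = 0.0631). After 6 Gy, Cxcl12 was called among days by DESeq2 (0.0399), and by edgeR without day 7 (0.0478) or day 15 (0.0496). The effect of treatment itself differed between days for Cxcl12 after 6 Gy (adjusted p = 0.0244) and under 6 Gy + INDO (adjusted p = 0.000711), and was not called under INDO (adjusted p = 0.0823). It was the 1 member called after 6 Gy, where 3.82% of all genes were called, and 1 of 2 under 6 Gy + INDO, where 33.6% were. Under INDO edgeR called 0 members beside 2.66% of all genes, with 6 members at an unadjusted p under 0.05 and 1, Cxcl12, called by DESeq2. The call after 6 Gy was lost without day 7 (adjusted p = 0.124), without day 15 (0.292) and with housekeeping scaling (0.0652).

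Genes of the cell types that make CXCL12 were lower in the same tumors. The 11 fibroblast and pericyte markers summed on day 1 to medians of 4710.0 CPM after 6 Gy, 5357 CPM under INDO and 5624 CPM under 6 Gy + INDO, against 9286 CPM in untreated controls. On day 7 these medians were 2490.0 CPM after 6 Gy, 3888 CPM under INDO and 1448 CPM under 6 Gy + INDO, against 11550.0 CPM in untreated controls. The controls ranged from 6177 to 14190.0 CPM on day 1 and from 8334 to 15640.0 CPM on day 7, and no marker of the list was at 0 in all tumors. On day 15, when Cxcl12 of the controls was low, their fibroblast sum was 2431 to 3600.0 CPM, and on day 23, when it was also low, 2141 to 6655 CPM, which reached into the day 1 range. Of the 11 markers, 8 were called lower on day 1 after 6 Gy (9.43% of all genes tested lower), 8 under INDO (8.89%) and 5 under 6 Gy + INDO (13.3%). Under INDO the smallest p-values were those of Pdgfra, a growth factor receptor of fibroblasts (-0.997 ± 0.12, adjusted p = 1.66e-05), and Dcn, the gene of the proteoglycan decorin (-2.49 ± 0.35, adjusted p = 0.000107). Of the 6 adipocyte markers, 6 were called lower in each treated group on day 1, beside the same shares of all genes. Their summed medians were 4.15 CPM after 6 Gy, 3.23 CPM under INDO and 5.59 CPM under 6 Gy + INDO, against 77.8 CPM in untreated controls. The 10 endothelial markers had summed medians of 230.1 CPM after 6 Gy, 233 CPM under INDO and 190.0 CPM under 6 Gy + INDO, against 382 CPM in untreated controls, and the 10 macrophage and monocyte markers of 798 CPM after 6 Gy, 733 CPM under INDO and 715 CPM under 6 Gy + INDO, against 1789 CPM in untreated controls. All 4 lists thus moved with Cxcl12, and they were not alone. On day 1 the T and B cell markers had summed medians of 2.23 CPM after 6 Gy, 4.01 CPM under INDO and 2.20 CPM under 6 Gy + INDO, against 17.2 CPM in untreated controls. Neutrophil and platelet sums, given below, were also lower in each treated group. Sums of tumor epithelium, skeletal muscle and skin keratinocyte markers were lower in some treated groups and higher in others. The part of these lists in the change of Cxcl12 was not tested.

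Per 1000 CPM of a marker list, ratios added after the values were seen, Cxcl12 was set beside the fibroblast, endothelial and adipocyte markers, which gave unlike values. Per 1000 CPM of the fibroblast and pericyte markers, Cxcl12 on day 1 was 0.673 to 1.83 after 6 Gy, 0.3132 to 1.2 under INDO and 0.6997 to 1.21 under 6 Gy + INDO, against 4.14 to 7.59 in untreated controls. None of the treated tumors of day 1 overlapped the controls in this ratio, and each two-sided exact permutation test gave p = 0.00794, the smallest that 5 tumors against 4 allow (adjusted p = 0.0298 over the 15 comparisons). On day 7 the ratio was 1.43 to 2.66 after 6 Gy, against 3.04 to 11.3 in untreated controls (exact permutation p = 0.00794, adjusted p = 0.0298), and for INDO and 6 Gy + INDO the adjusted p of the exact test was 0.119. On day 3 the adjusted p was 0.119 after 6 Gy, 0.857 under INDO and 0.0714 under 6 Gy + INDO, and on days 15 and 23 it was 0.723 to 0.857 by the same exact tests. Per 1000 CPM of the endothelial markers, Cxcl12 on day 1 was 5.23 to 39.2 after 6 Gy, 7.20 to 33.05 under INDO and 21.9 to 35.7 under 6 Gy + INDO, against 88.2 to 171 in untreated controls, again with no overlap (exact permutation p = 0.00794, adjusted p = 0.0238 over the 15 comparisons with this list). Per 1000 CPM of the adipocyte markers it was 456 to 3338 after 6 Gy, 447 to 1059 under INDO and 821 to 1494 under 6 Gy + INDO, against 656 to 1238 in untreated controls. The groups overlapped in that ratio on day 1, and over the 15 comparisons with the adipocyte list the adjusted p of the exact tests was 0.536 to 0.929.

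**Figure D3:**
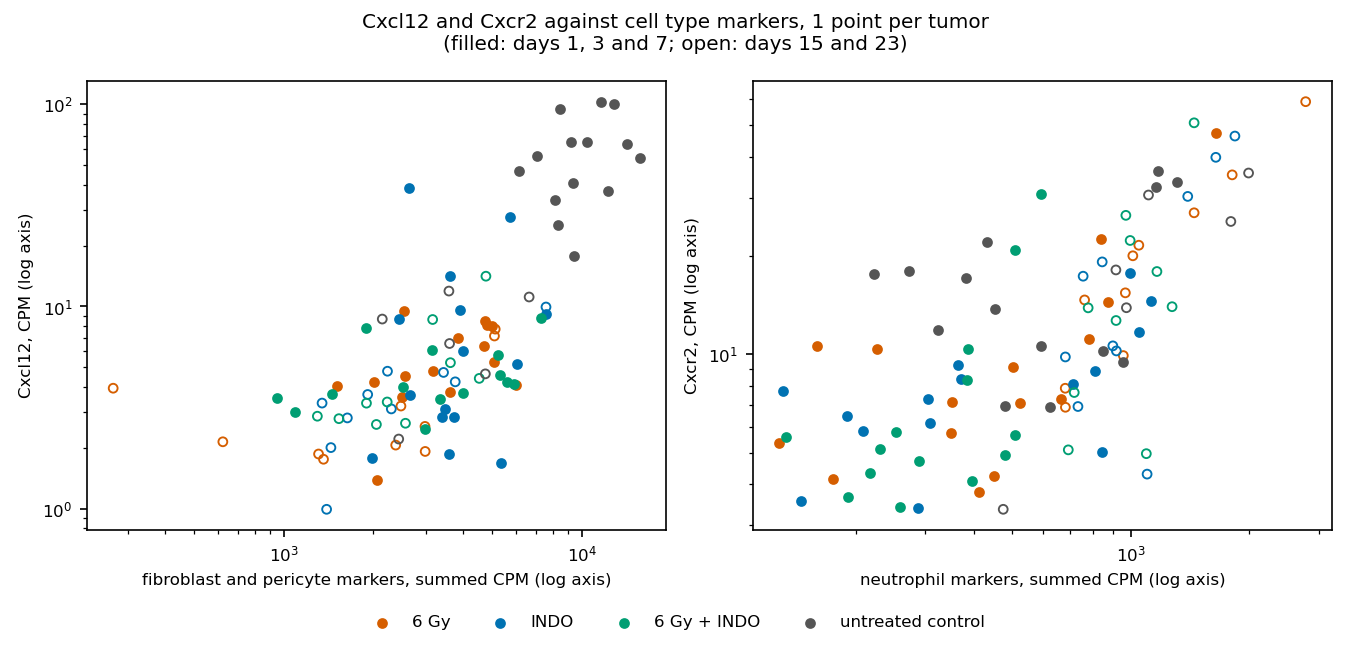
Cxcl12 against summed fibroblast and pericyte markers (left) and Cxcr2 against summed neutrophil markers (right), all in CPM on log axes, with 1 point per tumor, coloured by treatment and filled for days 1, 3 and 7. Early untreated controls form the upper right of the left panel, while on the right Cxcr2 and the markers climb together (Pearson r = 0.707 and 0.683 over 94 tumors). For deviations from the means of each treatment and day, these r were 0.39 and 0.549. By that measure Cxcr2 had r of 0.708 with platelet and megakaryocyte markers and 0.656 with skin keratinocyte markers.

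Among the ELR ligands, Cxcl5 was lower in all 3 treated groups on day 1. Cxcl5 encodes a chemokine that in mice is made largely by epithelium and platelets and stands for human CXCL5 and CXCL6. On day 1, Cxcl5 had 5.49, 2.43, 2.59, 4.06 and 4.98 CPM in 6 Gy tumors, 2.403, 2.05, 3.04, 2.26 and 2.25 CPM in INDO tumors and 3.21, 2.38, 2.49, 2.53 and 3.72 CPM in 6 Gy + INDO tumors, against 17.2, 10.5, 16.4 and 11.9 CPM in untreated controls. Every treated tumor lay below every untreated control, and means were 3.59-fold lower after 6 Gy, 5.84-fold lower under INDO and 4.90-fold lower under 6 Gy + INDO. Log2 fold changes were -1.83 ± 0.23 (adjusted p = 4.16e-05) after 6 Gy, -2.51 ± 0.24 (adjusted p = 1.87e-06) under INDO and -2.29 ± 0.24 (adjusted p = 3.07e-06) under 6 Gy + INDO. On day 3, Cxcl5 had 50.9, 6.66, 7.22, 3.94 and 5.51 CPM in 6 Gy tumors, 8.04, 10.2, 15.4, 2.13 and 8.78 CPM in INDO tumors and 4.397, 3.32, 3.18 and 4.27 CPM in 6 Gy + INDO tumors, against 18.3, 23.9, 16.03, 11.5 and 7.85 CPM in untreated controls. The 6 Gy + INDO tumors again lay below all controls, and 1 tumor after 6 Gy, replicate 1, lay far above all others of the day. The combination's log2 fold change of day 3 was -1.99 ± 0.68 (adjusted p = 0.0454). This call was lost, at adjusted p of 0.0565 to 0.117, on leaving out any 1 of 6 Gy + INDO replicates 1 to 4 or control replicates 1, 2, 3 and 5, and at 0.0518 to 0.51 with RLE size factors, with housekeeping scaling or without the tumors high in receptor reads. After 6 Gy the day 3 value was -0.07 ± 0.59 (adjusted p = 0.962), and without replicate 1 Cxcl5 was called (adjusted p = 0.041).

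On day 7, Cxcl5 had 16.4, 58.4, 24.1, 16.8 and 65.7 CPM in 6 Gy tumors, 20.8, 22.3, 39.05, 29.97 and 34.02 CPM in INDO tumors and 27.5, 11.1, 31.6, 6.71 and 18.1 CPM in 6 Gy + INDO tumors, against 74.8, 10.2, 51.9, 18.1 and 49.3 CPM in untreated controls, and groups overlapped. None of these comparisons was called, although without control replicate 2, the lowest control, the combination was (adjusted p = 0.0419). On day 15 the highest Cxcl5 level of all 94 tumors, 165 CPM, was in 6 Gy replicate 3, and the values were 21.5, 23.9, 165, 18.6 and 9.61 CPM in 6 Gy tumors, 10.4, 6.04, 21.9, 14.2 and 2.22 CPM in INDO tumors and 90.5, 38.9, 15.4, 65.3 and 48.8 CPM in 6 Gy + INDO tumors, against 11.9, 22.9 and 41.3 CPM in untreated controls. On day 23 Cxcl5 averaged 25.6 ± 25.9 CPM after 6 Gy, 20.5 ± 8.398 CPM under INDO and 15.7 ± 12.7 CPM under 6 Gy + INDO, against 12.1 ± 9.39 CPM in untreated controls (SD, n = 5, 5, 5 and 3). The effect of 6 Gy + INDO on Cxcl5 differed between days (adjusted p = 0.0219), with log2 fold changes of -2.29 ± 0.24, -1.99 ± 0.68, -1.03 ± 0.52, 1.01 ± 0.84 and 0.42 ± 0.87 on days 1, 3, 7, 15 and 23. That call was lost without day 1, without day 15 and without the tumors high in receptor reads (adjusted p of 0.112 to 0.311).

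Cxcl3 encodes a close relative of CXCL1 and CXCL2. On day 1, Cxcl3 had 1.01, 1.46, 1.95, 1.23 and 2.04 CPM in 6 Gy tumors, 0.343, 0.601, 0.2996, 0.727 and 0.4304 CPM in INDO tumors and 0.959, 0.606, 1.702, 0.739 and 1.52 CPM in 6 Gy + INDO tumors, against 1.81, 5.14, 4.62 and 2.602 CPM in untreated controls. INDO tumors and 6 Gy + INDO tumors all lay below the controls, 7.37-fold and 3.20-fold in the means, and the 6 Gy tumors overlapped them. The log2 fold change was -1.20 ± 0.36 (adjusted p = 0.0284) after 6 Gy, -2.84 ± 0.38 (adjusted p = 6.06e-05) under INDO and -1.68 ± 0.36 (adjusted p = 0.00237) under 6 Gy + INDO, and the call after 6 Gy was lost (adjusted p of 0.0545 to 0.102) without any 1 of 6 Gy replicates 1 and 4 and control replicates 2 and 3. On day 3, Cxcl3 had 0.992, 2.22, 1.16, 1.59 and 0.264 CPM in INDO tumors, against 3.99, 11.02, 2.495, 2.896 and 2.87 CPM in untreated controls. The INDO tumors of day 3 again all lay below the controls, but the difference was not called by edgeR (-1.90 ± 0.62, adjusted p = 0.0715), while DESeq2 gave an adjusted p of 0.0176.

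Cxcl1 and Cxcl2, the mouse counterparts of the human GRO chemokines, were called on day 1 under INDO alone. On day 1, Cxcl1 had 24.2, 20.97, 20.04, 19.2 and 23.8 CPM in 6 Gy tumors, 12.5, 13.7, 17.2, 23.6 and 15.1 CPM in INDO tumors and 21.1, 24.1, 18.5, 16.7 and 16.4 CPM in 6 Gy + INDO tumors, against 21.1, 23.1, 25.5 and 33.2 CPM in untreated controls, with overlap in every comparison. Only INDO was called, at -0.61 ± 0.17 (adjusted p = 0.0213), and the call was lost (adjusted p of 0.051 to 0.0887) without any 1 of INDO replicates 1 and 2 and control replicates 3 and 4, and with housekeeping scaling (0.0876). Cxcl2 on day 1 had 1.33, 2.57, 2.06, 1.397 and 1.46 CPM in 6 Gy tumors, 1.16, 0.826, 0.856, 1.26 and 0.895 CPM in INDO tumors and 1.14, 1.24, 1.74, 1.07 and 1.63 CPM in 6 Gy + INDO tumors, against 0.725, 1.47, 3.14 and 4.49 CPM in untreated controls. INDO was again the 1 call (-1.27 ± 0.37, adjusted p = 0.0292), lost without any 1 of INDO replicates 2, 3 and 5 and control replicates 3 and 4 (adjusted p of 0.0558 to 0.146) and with housekeeping scaling (0.0552), and the 6 Gy + INDO value of -0.85 ± 0.37 (adjusted p = 0.102) was called without control replicate 1 (0.0137). On day 3, Cxcl2 had 49.1, 2.44, 4.95, 1.94 and 1.76 CPM in 6 Gy tumors, 2.16, 5.02, 6.98, 2.23 and 3.59 CPM in INDO tumors and 2.14, 2.37, 2.28 and 1.38 CPM in 6 Gy + INDO tumors, against 7.77, 15.8, 5.46, 5.35 and 4.55 CPM in untreated controls. The combination lay below every control on that day without passing the test (-1.90 ± 0.84, adjusted p = 0.115), and 1 tumor after 6 Gy stood at 49.1 CPM. The 6 Gy value of day 3, 0.62 ± 0.74 (adjusted p = 0.652), had the opposite sign and was called lower without that tumor (adjusted p = 0.0445).

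Ppbp levels were 0.0428 to 4.00 CPM over the 94 tumors, or 2 to 290 reads. On day 1, Ppbp had 0.295, 0.267, 0.75, 0.285 and 1.404 CPM in 6 Gy tumors, 0.106, 0.2504, 0.0428, 0.439 and 0.138 CPM in INDO tumors and 0.4496, 0.182, 1.42, 0.314 and 1.42 CPM in 6 Gy + INDO tumors, against 0.767, 1.49, 1.26 and 0.377 CPM in untreated controls. The comparison under INDO was called (-2.23 ± 0.70, adjusted p = 0.0383), and was lost at adjusted p of 0.0599 to 0.0965 without any 1 of INDO replicates 1, 2, 3 and 5 and control replicates 1, 2 and 3. On day 3, Ppbp had 0.258, 0.225, 0.276, 0.156 and 0.0608 CPM in INDO tumors, against 0.6598, 1.37, 0.671, 1.11 and 0.593 CPM in untreated controls, a difference without overlap between the groups (-2.15 ± 0.46, adjusted p = 0.0098). The call of day 3 was kept without each of the 10 tumors in turn. Of the platelet markers, Pf4, which encodes the related platelet chemokine CXCL4, was lower under INDO on day 1 (-2.70 ± 0.21, adjusted p = 2.27e-07), and the 9 platelet and megakaryocyte markers summed to medians of 20.1 CPM after 6 Gy, 11.8 CPM under INDO and 15.5 CPM under 6 Gy + INDO, against 63.5 CPM in untreated controls. Most of that sum was Pf4, which averaged 16.2 CPM after 6 Gy, 8.18 CPM under INDO and 13.0 CPM under 6 Gy + INDO, against 54.3 CPM in untreated controls on day 1. The sum was lower in all 3 treated groups, while Ppbp itself was called on day 1 under INDO and not after 6 Gy (-0.67 ± 0.65, adjusted p = 0.527) or under 6 Gy + INDO (-0.38 ± 0.65, adjusted p = 0.714). The part of platelet content in the Ppbp values was not tested.

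**Figure D4:**
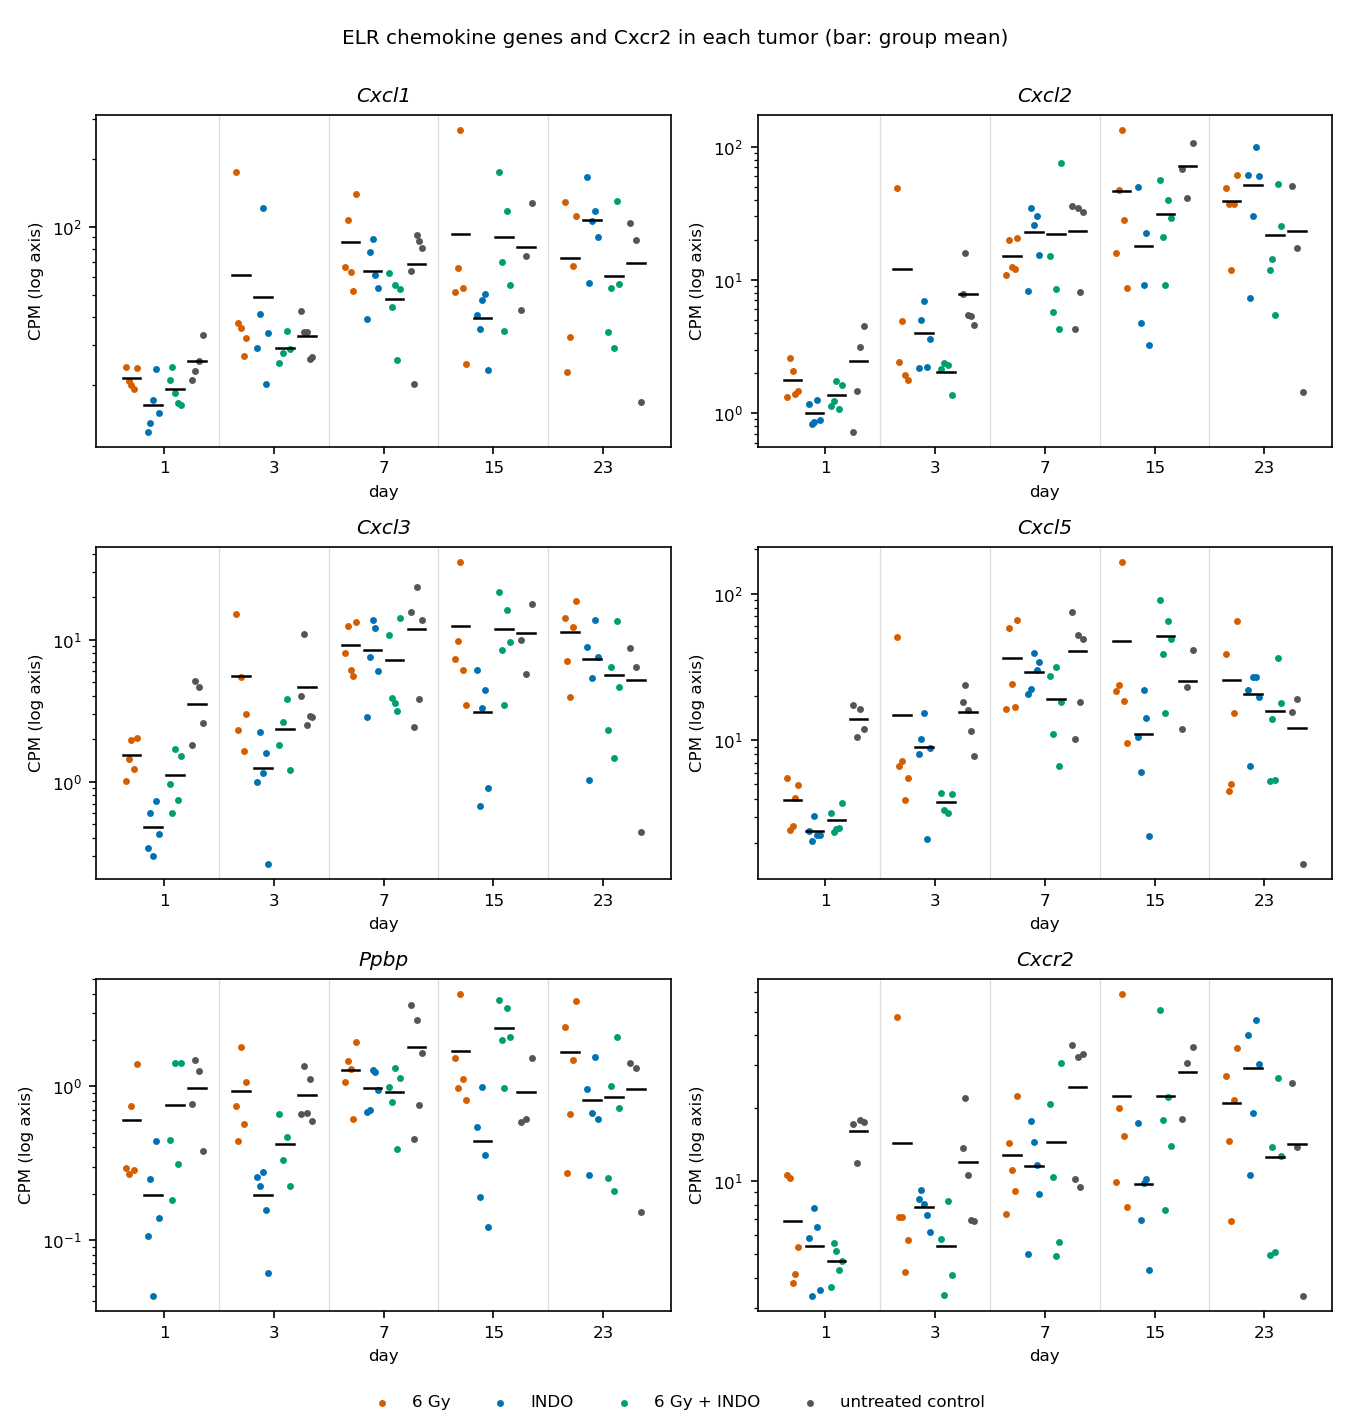
Levels of Cxcl1, Cxcl2, Cxcl3, Cxcl5, Ppbp and Cxcr2 in each tumor (points, CPM on log axes, a separate scale for each gene) by day, with 6 Gy, INDO, 6 Gy + INDO and untreated control tumors from left to right and a black bar at each group mean. All treated tumors sit under the controls on day 1 for Cxcl5 and Cxcr2, and 6 Gy replicate 3 of day 15 is the highest tumor for all 6 genes.

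Levels of the ELR ligands also differed among days within an arm. Cxcl2 averaged 1.76 ± 0.538 CPM on day 1, 15.2 ± 4.68 on day 7 and 39.1 ± 18.2 on day 23 after 6 Gy (SD, n = 5 each). Under INDO it averaged 1 ± 0.198, 22.8 ± 10.7 and 51.7 ± 35 CPM on those days, and under 6 Gy + INDO 1.36 ± 0.301, 21.9 ± 30.4 and 21.9 ± 18.5 CPM. The untreated controls averaged 2.46 ± 1.69, 23.1 ± 15.5 and 23.2 ± 25.2 CPM (n = 4, 5 and 3). Days differed for Cxcl2 in all 4 arms (adjusted p = 4.78e-05 after 6 Gy, 9.55e-07 under INDO, 1.28e-05 under 6 Gy + INDO and 0.000188 in untreated controls). Cxcl1 also differed among days in all 4 arms (adjusted p of 0.00022 to 0.0298), as did Ackr3 (2.10e-06 to 0.00156), although with housekeeping scaling both calls in the controls were lost (0.0766 for Cxcl1 and 0.071 for Ackr3). Cxcl3 and Cxcl5 differed among days in the 3 treated arms and not in the controls (adjusted p = 0.0995 and 0.119). In counts, days differed for 5 members after 6 Gy, 9 under INDO, 8 under 6 Gy + INDO and 4 in untreated controls, beside 23.3%, 25.9%, 43.6% and 30.2% of all genes. Without day 1, the 5 members called after 6 Gy then had adjusted p of 0.148 to 0.827. Cxcl1 was then called in no arm (0.122 to 0.827) and Ackr3 under 6 Gy + INDO alone (0.0802 to 0.366 in the other arms). The calls of Cxcl5 under INDO (0.185) and Cxcl3 under 6 Gy + INDO (0.121) were also lost without day 1. Without 6 Gy replicate 1 of day 3, days also differed after 6 Gy for Cxcr2 (adjusted p = 0.0039) and Cxcr4 (0.0292), and the effect of 6 Gy + INDO on Cxcr4 differed between days (0.0434).

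In 2 tumors most of the ELR genes stood apart together. On day 15, 6 Gy replicate 3 had the highest level of the series for 7 members, among them 268 CPM of Cxcl1, 134 CPM of Cxcl2, 35.3 CPM of Cxcl3 and 59.0 CPM of Cxcr2. Its neutrophil markers summed to 2780 CPM, against 682 to 1012 CPM in the other 6 Gy tumors of that day. On day 3, 6 Gy replicate 1 had 174 CPM of Cxcl1, 49.1 CPM of Cxcl2, 15.2 CPM of Cxcl3 and 47.4 CPM of Cxcr2, and its neutrophil markers summed to 1644 CPM, against 350 to 522 CPM in the other 4. Ppbp did not stand apart in that tumor, at 0.746 CPM, against 0.443 to 1.82 CPM in the other 4. Both tumors thus carried high neutrophil markers, whose part in these levels was not tested.

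Cxcr2, the receptor of these ligands and mainly a neutrophil gene, was also lower on day 1. On day 1, Cxcr2 had 10.6, 10.4, 3.79, 4.15 and 5.35 CPM in 6 Gy tumors, 5.81, 3.38, 7.72, 6.49 and 3.56 CPM in INDO tumors and 3.66, 5.59, 5.14, 4.32 and 4.702 CPM in 6 Gy + INDO tumors, against 17.1, 11.9, 17.9 and 17.6 CPM in untreated controls. Every treated tumor lay below every control, 2.35-fold lower in the mean after 6 Gy, 2.99-fold under INDO and 3.45-fold under 6 Gy + INDO. Log2 fold changes were -1.23 ± 0.30 (adjusted p = 0.0097), -1.55 ± 0.30 (adjusted p = 0.00216) and -1.78 ± 0.30 (adjusted p = 0.000389) in that order, and these 3 calls were kept without each tumor in turn and under each other alternative. On day 3, Cxcr2 had 47.4, 7.12, 7.11, 4.24 and 5.74 CPM in 6 Gy tumors, 8.41, 9.24, 8.09, 7.28 and 6.17 CPM in INDO tumors and 5.79, 3.404, 8.32 and 4.103 CPM in 6 Gy + INDO tumors, against 13.7, 22.1, 10.6, 6.93 and 6.87 CPM in untreated controls. On day 7, it had 7.31, 14.4, 11.1, 9.11 and 22.4 CPM in 6 Gy tumors, 5.03, 17.8, 14.5, 11.7 and 8.87 CPM in INDO tumors and 20.8, 10.4, 4.93, 5.64 and 30.8 CPM in 6 Gy + INDO tumors, against 36.3, 10.2, 32.5, 9.45 and 33.5 CPM in untreated controls. Groups overlapped on both days and none of the comparisons was called (adjusted p of 0.152 to 0.826). On day 15 the INDO tumors all lay below the controls (17.3, 6.92, 9.805, 10.2 and 4.302 CPM in INDO tumors, against 18.1, 30.6 and 35.7 CPM in untreated controls), but the difference was not called (-1.53 ± 0.61, adjusted p = 0.45).

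The 19 neutrophil markers summed on day 1 to medians of 175 CPM after 6 Gy, 191 CPM under INDO and 217 CPM under 6 Gy + INDO, against 299 CPM in untreated controls. Of the 15 that passed the filter on low counts on that day, 6 were called lower on day 1 after 6 Gy (9.43% of all genes tested lower), 7 under INDO (8.89%) and 8 under 6 Gy + INDO (13.3%), where 1 was higher (10.7% of all genes). Those that fell under INDO included Clec4d, a C-type lectin of myeloid cells (-1.94 ± 0.23, adjusted p = 1.86e-05), and Csf3r, the receptor of G-CSF (-1.92 ± 0.27, adjusted p = 0.000115). The sum was larger on day 23, at 1048 CPM after 6 Gy, 1395 CPM under INDO and 917 CPM under 6 Gy + INDO, against 975 CPM in untreated controls. Per 1000 CPM of these markers, also a ratio added after the values were seen, Cxcr2 on day 1 was 9.23 to 66.5 after 6 Gy, 11.7 to 59.0 under INDO and 16.3 to 41.9 under 6 Gy + INDO, against 36.7 to 78.9 in untreated controls. All 3 overlapped the controls, and their medians were 41.8, 27.9 and 19.9 in that order, against 55.2 in untreated controls. The exact permutation tests gave unadjusted p of 0.214, 0.0873 and 0.0238, and adjusted p of 0.402, 0.312 and 0.312 (15 comparisons). The smallest p that 5 tumors against 4 allow is 0.00794, so these tests cannot show that the ratio was unchanged. The part of neutrophil content in the Cxcr2 change was not tested.

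Cxcr4, the signalling receptor of CXCL12, carried by leukocytes and many tumor cells, also fell on day 1. It had 11.7, 14.3, 7.92, 5.69 and 4.42 CPM in 6 Gy tumors, 10.1, 4.93, 6.83, 7.48 and 3.92 CPM in INDO tumors and 4.99, 6.83, 6.56, 4.41 and 5.79 CPM in 6 Gy + INDO tumors, against 24.5, 16.4, 18.4 and 16.3 CPM in untreated controls. Every treated tumor lay below every control, 2.14-fold lower in the mean after 6 Gy, 2.83-fold under INDO and 3.30-fold under 6 Gy + INDO, and log2 fold changes were -1.09 ± 0.30 (adjusted p = 0.0185), -1.47 ± 0.30 (adjusted p = 0.00307) and -1.71 ± 0.30 (adjusted p = 0.000497) in that order. The 6 Gy call was lost without 6 Gy replicate 4 or control replicate 1 (adjusted p of 0.054 to 0.0681). On day 3, Cxcr4 had 7.48, 7.18, 9.14 and 4.08 CPM in 6 Gy + INDO tumors, against 18.7, 27.4, 19.4, 16.5 and 12.3 CPM in untreated controls, with no overlap (-1.40 ± 0.43, adjusted p = 0.0287). That call was lost (adjusted p of 0.0539 to 0.0792) without any 1 of 6 Gy + INDO replicates 1, 2 and 4 and control replicates 1, 2 and 3, with housekeeping scaling (0.0736) and without the tumors high in receptor reads (0.615). On day 7, Cxcr4 had 14.3, 13.3, 13.6, 11.2 and 14.5 CPM in 6 Gy tumors, 15.5, 22.01, 17.8, 23.2 and 20 CPM in INDO tumors and 25.7, 12.8, 13.1, 9.79 and 15.7 CPM in 6 Gy + INDO tumors, against 33.7, 16.9, 31.4, 15.2 and 33.4 CPM in untreated controls. All 6 Gy tumors lay below the controls (-0.97 ± 0.25, adjusted p = 0.0108), and the combination was called with overlapping groups (-0.68 ± 0.25, adjusted p = 0.031). The 6 Gy + INDO call was lost without any 1 of 6 Gy + INDO replicates 3 and 4 and control replicates 1, 3 and 5 (adjusted p of 0.0649 to 0.0762), with housekeeping scaling (0.57) and without the tumors high in receptor reads (0.295).

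Ackr3, the atypical receptor that clears CXCL12, was lower under INDO and under 6 Gy + INDO on days 1 and 7. On day 1, Ackr3 had 27.7, 31.6, 43.6, 28.7 and 26.1 CPM in 6 Gy tumors, 19.6, 23.7, 21.2, 21.02 and 18.7 CPM in INDO tumors and 21.1, 20.1, 24.2, 18.1 and 27.9 CPM in 6 Gy + INDO tumors, against 37.5, 37.9, 36.8 and 28.2 CPM in untreated controls. INDO and 6 Gy + INDO tumors lay below all controls, and the 6 Gy tumors overlapped them. The log2 fold change was -0.14 ± 0.14 (adjusted p = 0.54) after 6 Gy, -0.72 ± 0.14 (adjusted p = 0.00263) under INDO and -0.65 ± 0.14 (adjusted p = 0.00309) under 6 Gy + INDO. On day 3, Ackr3 had 57.8, 46.3, 50.3, 40.7 and 46.4 CPM in 6 Gy tumors, 36.9, 47.4, 49.01, 26.4 and 40.2 CPM in INDO tumors and 30.9, 30.1, 27.9 and 31.2 CPM in 6 Gy + INDO tumors, against 43.6, 45.04, 51.4, 46.1 and 43.2 CPM in untreated controls. The 6 Gy + INDO tumors of day 3 lay below all controls (-0.57 ± 0.14, adjusted p = 0.0115), while the INDO tumors overlapped them and were not called (-0.19 ± 0.13, adjusted p = 0.374). On day 7, Ackr3 had 74.5, 63.5, 67.4, 65.05 and 69.3 CPM in 6 Gy tumors, 48.95, 37.3, 54.6, 42.97 and 48.1 CPM in INDO tumors and 44.9, 50.9, 40.5, 51.6 and 33.9 CPM in 6 Gy + INDO tumors, against 62.7, 57.6, 79.5, 80.7 and 84.7 CPM in untreated controls. Both INDO arms again lay below all controls (-0.59 ± 0.12, adjusted p = 0.00292 under INDO and -0.64 ± 0.12, adjusted p = 0.000551 under 6 Gy + INDO), and 6 Gy did not differ detectably (-0.10 ± 0.12, adjusted p = 0.599). With housekeeping scaling the 6 Gy + INDO calls were lost on day 3 (adjusted p = 0.621) and day 7 (0.433), and that of day 3 also without the tumors high in receptor reads (0.304). Levels of Ackr3 spanned 18.1 to 99.3 CPM over the 94 tumors, the narrowest range of the 9 genes in fold terms.

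**Figure D5:**
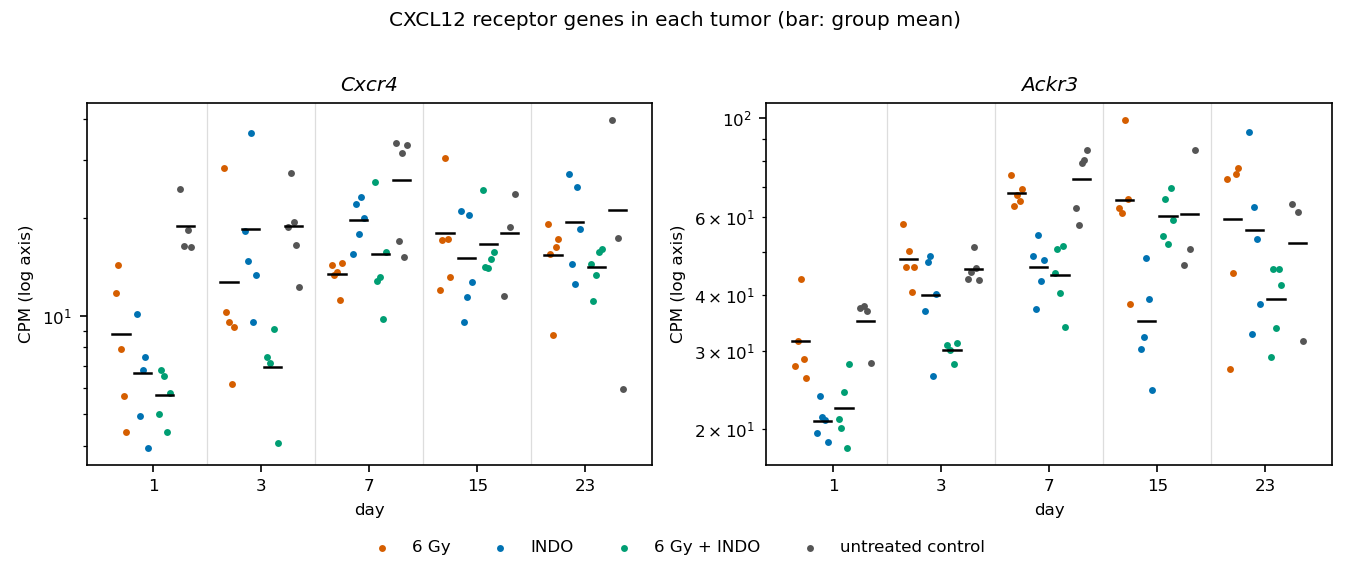
Levels of Cxcr4 (left) and Ackr3 (right) in each tumor (points, CPM on log axes with separate scales) by day, with 6 Gy, INDO, 6 Gy + INDO and untreated control tumors from left to right and a black bar at each group mean. On day 1 all treated tumors are below the controls for Cxcr4, and on days 1 and 7 those given INDO or 6 Gy + INDO are below the controls for Ackr3.

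As a mean over the 5 days, in 1 fit of all tumors, 2 members fell after 6 Gy, 7 under INDO and 6 under 6 Gy + INDO. Over all genes tested, 9.19% were called higher and 10.6% lower after 6 Gy, 16.8% and 17.4% under INDO, and 29.6% and 23.2% under 6 Gy + INDO. Cxcl12 fell in all 3 arms, with log2 fold changes of -2.52 ± 0.25 (adjusted p = 3.36e-12) after 6 Gy, -2.06 ± 0.25 (adjusted p = 2.16e-09) under INDO and -2.41 ± 0.26 (adjusted p = 8.21e-12) under 6 Gy + INDO. Cxcr4 also fell in all 3, with values in that order of -0.62 ± 0.16 (adjusted p = 0.00234), -0.46 ± 0.16 (adjusted p = 0.0174) and -0.92 ± 0.16 (adjusted p = 2.56e-06). The ligand genes Cxcl3 (-1.32 ± 0.30, adjusted p = 0.000426), Ppbp (-1.34 ± 0.29, adjusted p = 0.000218) and Cxcl5 (-0.86 ± 0.30, adjusted p = 0.0202) and the receptor genes Cxcr2 (-0.75 ± 0.25, adjusted p = 0.0152) and Ackr3 (-0.46 ± 0.10, adjusted p = 0.000181) fell under INDO. Under 6 Gy + INDO, Cxcl2, Cxcl5, Cxcr2 and Ackr3 fell (adjusted p of 4.56e-05 to 0.0392). Without day 1 the counts under INDO and under 6 Gy + INDO were 4 and 3, and with housekeeping scaling 4 and 2. The calls lost with housekeeping scaling were those of Cxcl5, Cxcr2 and Cxcr4 under INDO (adjusted p of 0.0729 to 0.167) and of Cxcl2, Cxcl5, Cxcr2 and Ackr3 under 6 Gy + INDO (0.113 to 0.268), where Ackr3 came to -0.13. The Cxcl2 call under 6 Gy + INDO was also lost with RLE size factors (0.0589) and with no filter on low counts (0.0518). Cxcl3 was also called under 6 Gy + INDO when 6 Gy replicate 3 of day 15 or 6 Gy replicate 1 of day 3 was left out (adjusted p of 0.0467 to 0.0478).

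Cxcl1, the most abundant ligand gene, was not called in any of these means, at 0.25 ± 0.22 (adjusted p = 0.518) after 6 Gy, -0.12 ± 0.22 (adjusted p = 0.787) under INDO and -0.23 ± 0.23 (adjusted p = 0.434) under 6 Gy + INDO. An estimate near 0 with these SEs leaves room for a change of either sign in single arms.

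The combination was also set against each treatment alone. Against 6 Gy, 2 members were lower under 6 Gy + INDO, Cxcl5 (-0.79 ± 0.29, adjusted p = 0.0195) and Ackr3 (-0.50 ± 0.09, adjusted p = 1.24e-05), where 25.9% of all genes tested were called higher and 19.8% lower. The Cxcl5 call was lost without 6 Gy replicate 1 of day 3 or 6 Gy replicate 3 of day 15 (adjusted p of 0.0864 to 0.0916), with housekeeping scaling (-0.42, adjusted p = 0.21), without the tumors high in receptor reads (0.0581) and without day 3 (0.229) or day 7 (0.065). Without all of day 15 the count was 6. Against INDO, Cxcr4 was lower (-0.46 ± 0.15, adjusted p = 0.0388) and Ppbp higher (1.09 ± 0.28, adjusted p = 0.00953) with the combination, where 7.21% of all genes tested were called higher and 3.54% lower. Without the tumors high in receptor reads neither was called (adjusted p = 0.439 for Cxcr4 and 0.23 for Ppbp), nor without day 3 (0.603 and 0.134). The interaction, the log2 effect of the combination minus the sum of the single effects, was called for 1 member, Cxcl12 (2.17 ± 0.34, adjusted p = 2.56e-05), where 5.65% of all genes tested were called higher and 1.92% lower. Its positive value says that the effect of both treatments, -2.41, was smaller in size than the sum of -2.52 after 6 Gy and -2.06 under INDO, and the combination did not differ detectably from 6 Gy (0.11 ± 0.23, adjusted p = 0.802) or INDO (-0.35 ± 0.23, adjusted p = 0.378) alone.

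Across the 94 tumors the ELR ligands and Cxcr2 varied together, and Cxcr4 and Ackr3 varied with them. Pearson r of log2(CPM + 0.5) was 0.848 for Cxcl1 with Cxcl2, 0.879 for Cxcl2 with Cxcl3, 0.863 for Cxcl1 with Cxcl5 and 0.832 for Cxcl2 with Cxcr2. For deviations from the 20 group means the same pairs had r of 0.759, 0.888, 0.877 and 0.868, so that tumors of 1 group spread along the same line. Ppbp was less close, with r of 0.605 (Cxcl2) to 0.824 (Cxcl3) with the other ligands and Cxcr2. With the 5 ligands and Cxcr2, Ackr3 had r of 0.636 (Cxcr2) to 0.81 (Cxcl5) and Cxcr4 of 0.455 (Ppbp) to 0.781 (Cxcr2). For deviations from the group means these were 0.39 to 0.643 for Ackr3 and 0.386 to 0.752 for Cxcr4. Cxcl12 stood outside this group, with r of -0.083 to 0.199 with the 5 ligands and 0.103 with Cxcr2. Its r was 0.377 with its receptor gene Cxcr4 and 0.087 with Ackr3. The points share treatments, days and the depth of each library, so these values are a description with no test. Spearman rho of the first 4 pairs was 0.853, 0.886, 0.869 and 0.818.

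Among genes with a mean log2 CPM of at least 1, those most like each member were also named. Cxcl2 was most like Hcar2 (r = 0.958), G0s2 (0.957) and the neutrophil calprotectin gene S100a9 (0.954). Cxcr2 was most like Hdc, which makes histamine (0.934), Csf3r (0.933) and Osm, which encodes oncostatin M (0.933). Cxcl1 resembled G0s2 (0.889), Clec4e (0.886) and Cstdc4 (0.878), and Cxcl3 resembled Clec4d (0.917), G0s2 (0.897) and Slfn4 (0.886). Cxcl5 was nearest to Ptgs2, the gene of COX2, which INDO inhibits (0.892), then Clec4d (0.880) and G0s2 (0.875), and Ppbp to its neighbours Cxcl3 (0.824) and Cxcl5 (0.773) and to Cd80 (0.726). The genes nearest to Cxcl12 were Adamts5 (0.902), Abi3bp (0.899) and Prelp (0.896). Cxcr4 was nearest to Syk (0.893), Arg2 (0.869) and Trpv2 (0.866), and Ackr3 to the hypoxia-inducible gene Hilpda (0.869), Traf6 (0.864) and Kcmf1 (0.850). Spearman rho for these 27 pairs was 0.712 to 0.971, and r of deviations from the group means was 0.596 to 0.947.

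The other genes of the pathway were counted from lists. Of 4 further chemokine and receptor genes (Cxcl15, Pf4, Cxcr1 and Ackr1), 1 was lower as a mean over days after 6 Gy, 2 under INDO and 3 under 6 Gy + INDO. Of all genes tested, 10.6%, 17.4% and 23.2% were lower in that order. Ackr1, the venular decoy receptor that binds ELR chemokines, fell in all 3 arms, with log2 fold changes of -2.20 ± 0.35 (adjusted p = 1.06e-06), -1.27 ± 0.34 (adjusted p = 0.00232) and -1.91 ± 0.36 (adjusted p = 8.82e-06). Pf4 fell under INDO (-1.36 ± 0.18, adjusted p = 4.62e-08) and under 6 Gy + INDO (-0.86 ± 0.19, adjusted p = 8.70e-05), and Cxcr1, the second ELR receptor, under 6 Gy + INDO (-0.87 ± 0.32, adjusted p = 0.0168). A list of 7 receptors that attract neutrophils also holds Cxcr1, so the 2 lists share that gene. Beside the same shares of all genes, 3 of these 7 fell after 6 Gy, 4 under INDO and 3 under 6 Gy + INDO. They were led by Fpr2, a formyl peptide receptor, under INDO (-1.08 ± 0.19, adjusted p = 1.32e-05). The medians of this list were -0.42, -0.47 and -0.44, beside 0.03, 0.07 and 0.19 over all genes.

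Upstream, 14 of the 15 inducers of ELR chemokines passed the filter, and 3 fell after 6 Gy, 3 fell and 2 rose under INDO, and 4 fell and 1 rose under 6 Gy + INDO. Of all genes tested, 10.6% were lower after 6 Gy, 17.4% were lower and 16.8% higher under INDO, and 23.2% lower and 29.6% higher under 6 Gy + INDO, and the counts of the list are read as no result about it. The median fold change of the list was close to 0 (-0.01, 0.10 and -0.12). Il1r1, the IL-1 receptor, was lower in all 3 arms, with log2 fold changes of -0.52 ± 0.07 (adjusted p = 7.72e-08), -0.82 ± 0.07 (adjusted p = 3.96e-13) and -0.82 ± 0.07 (adjusted p = 7.65e-14), and Il1b was lower under INDO on day 1 (-1.06 ± 0.15, adjusted p = 8.84e-05). Nfkb1, which encodes the p50 subunit of NF-κB, was higher under INDO (0.29 ± 0.08, adjusted p = 0.00387).

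Downstream, of 18 genes of chemokine receptor signalling 14 fell after 6 Gy (10.6% of all genes tested lower), 11 under INDO (17.4%) and 16 under 6 Gy + INDO (23.2%). Among them, Pik3cg, the leukocyte PI3K that G proteins switch on, fell, with log2 fold changes of -0.52 ± 0.08 (adjusted p = 1.91e-07) after 6 Gy and -0.70 ± 0.08 (adjusted p = 3.42e-11) under 6 Gy + INDO. Beside the same shares of all genes, 3, 4 and 6 of the 7 partners of the CXCL12 axis fell in these arms. They include Cxcl14, a chemokine that can bind CXCR4 (-1.20 ± 0.26, adjusted p = 0.000275, -1.16 ± 0.26, adjusted p = 0.000306 and -1.15 ± 0.26, adjusted p = 0.000189), and Dpp4, the protease that inactivates CXCL12 (-0.96 ± 0.17, adjusted p = 1.18e-05, -0.52 ± 0.17, adjusted p = 0.0138 and -1.03 ± 0.17, adjusted p = 1.58e-06).

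As means over days, the cell type lists fell in part with these genes. Of the 18 neutrophil markers tested, 3 were lower after 6 Gy (10.6% of all genes tested lower), 10 under INDO (17.4%) and 12 under 6 Gy + INDO (23.2%). Called higher were 9.19%, 16.8% and 29.6% of all genes in that order, and these shares also stand beside the lists that follow. Of the 11 fibroblast and pericyte markers, 11, 10 and 11 were lower, and of the 10 endothelial markers 9 in each arm. Macrophage and monocyte markers were lower for 9, 4 and 7 of 10, and T and B cell markers for 7 of 10 after 6 Gy and under 6 Gy + INDO, while 1 was higher under INDO. Of the 8 platelet and megakaryocyte markers tested, Pf4 and Itga2b were lower under INDO and under 6 Gy + INDO, and 4 were higher under 6 Gy + INDO, with list medians of -0.17 after 6 Gy, 0.15 under INDO and 0.56 under 6 Gy + INDO. The 8 tumor epithelium markers had 4 lower under INDO and 4 under 6 Gy + INDO. Across the 94 tumors, Cxcl12 had r of 0.865 with summed adipocyte markers, 0.751 with endothelial, 0.727 with macrophage and monocyte and 0.707 with fibroblast markers. For deviations from the group means these were 0.618, 0.273, 0.236 and 0.39. T and B cell markers had r of 0.431 with Cxcl12 over all tumors and 0.638, the highest of the lists, for deviations. Cxcl2 had r of 0.874 with neutrophil markers, and 0.61 for deviations, where platelet markers had 0.651.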

How the data were processed

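RNA of 94 tumors was sequenced by the authors as paired-end total RNA libraries, for which the labels and the study's methods name different kits. Per the labels, the submitters' processing notes name cutadapt, STAR, Partek 11.0.24.0328 and mm10; the counter, its annotation and its use of strand are not given in the sources used here. Expected counts per gene were deposited by the authors; 15.451% of the values were not whole, and all were rounded. All 94 columns matched a sample. The study normalised to housekeeping genes that it did not name, so TMM was used here and scaling by 14 housekeeping genes was an alternative.

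The 9 genes were chosen by symbol and by no measured value, but they and all lists were chosen with earlier results of these data known. Genes were filtered with filterByExpr and tested with edgeR 4.0.16 (R 4.3.3, limma 3.58.1) by the quasi-likelihood test with Benjamini-Hochberg adjustment over all genes, within each day and in 1 fit of all tumors. The SE is the log2 fold change divided by the square root of F. Depth was 21 M to 109.3 M counts (M, megacounts). The steps were tested on simulated data. From each list at most 4 genes with the smallest p among those called were named, and for each member the 3 most similar genes. Alternatives were DESeq2 1.42.0, RLE size factors, housekeeping scaling, no filter on low counts, the replicate number as a block, and leaving out each tumor, each day, or the 11 tumors over 300 CPM on olfactory and vomeronasal receptor genes. Leaving out 2 outlying 6 Gy tumors from the fit of all tumors, and the marker ratios, were added after the values were seen.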

Additional observations from a re-analysis of the deposited data

Results flagged for a closer look

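Within each group of 4 or 5 tumors, the tumor farthest from the others was compared with Dixon's critical value. It stood apart in 24 of 162 pairings of a gene with a group (14.8%), and in 21 of the 24 it was the highest tumor. The nominal 5% of Dixon's value applies to normally distributed values in a single group. Here many of the genes vary together in the same tumors, and CPM levels may be skewed toward high values. The 14.8% therefore cannot be set against 5%, and whether it exceeds chance was not tested. After 6 Gy, replicate 3 of day 15 stood apart in 6 members: Cxcl1 at 268.2 CPM, Cxcl3 at 35.26, Cxcl5 at 164.6, Ppbp at 4.003, Cxcr2 at 59.02 and Cxcr4 at 30.39 CPM. Replicate 1 of day 3 after 6 Gy also stood apart in 6: Cxcl1 at 173.8 CPM, Cxcl2 at 49.07, Cxcl3 at 15.23, Cxcl5 at 50.85, Cxcr2 at 47.38 and Cxcr4 at 28.36 CPM. The remaining high tumors were INDO replicate 3 of day 3 (Cxcl1 at 120.6 CPM and Cxcl12 at 38.69 CPM), INDO replicate 5 of day 15 (Cxcl12 at 9.939 CPM), 6 Gy + INDO replicate 5 of day 7 (Cxcl2 at 75.73 CPM), replicate 1 of day 15 (Cxcr4 at 24.31 CPM), and replicates 1 (Cxcl12 at 14.12 CPM) and 4 (Cxcl1 at 129.4 CPM) of day 23. Control replicate 2 of day 3 was high in Cxcl2 (15.83 CPM) and Cxcl3 (11.02 CPM). The 3 low tumors were 6 Gy replicate 2 of day 3 (Cxcl12 at 3.783 CPM), control replicate 2 of day 1 (Cxcr2 at 11.88 CPM) and control replicate 4 of day 1 (Ackr3 at 28.22 CPM).

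By edgeR, the effect of treatment differed between days for Cxcl12 after 6 Gy (adjusted p = 0.0244) and with 6 Gy + INDO (adjusted p = 0.000711), and for Cxcl5 with 6 Gy + INDO (adjusted p = 0.0219). The interaction of 6 Gy and INDO as a mean over days was 2.17 on the log2 scale for Cxcl12.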

How the results depend on the processing

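Of 82 called values of the 9 genes, 41 kept their call in every setting that left no single tumor out, and 24 of the 33 called within-day values kept it without each tumor in turn. The number of members called moved by over 1.5 times as follows; the cause was not tested. With housekeeping scaling it was 4 for INDO (7 with TMM) and 2 for 6 Gy + INDO (6) as means over days, 1 for 6 Gy + INDO against 6 Gy (2), 2 among days in controls (4), 0 for the difference of the 6 Gy effect between days (1), and 1 for 6 Gy + INDO on day 3 (4) and on day 7 (3). Without the tumors high in receptor reads it was 1 against 6 Gy, 0 against INDO (2), 1 for the difference of the 6 Gy + INDO effect between days (2) and 0 for 6 Gy + INDO on day 3. DESeq2 called 1 member for the INDO effect between days (0), 3 for INDO on day 3 (1) and 1 for 6 Gy on day 23 (0). Without day 1 the means gave 4 for INDO and 3 for 6 Gy + INDO, days differed for 0 members after 6 Gy (5), 5 with INDO (9), 4 with 6 Gy + INDO (8) and 2 in controls, and the 6 Gy + INDO effect differed for 1. Without day 3 the count was 1 against 6 Gy, 0 against INDO and 1 for the INDO effect between days. Without day 7 it was 1 for 6 Gy (2), 4 for INDO, 1 against INDO, 2 among days in controls and 0 for the 6 Gy effect between days. Without day 15 it was 6 against 6 Gy, 0 for the 6 Gy effect and 1 for the 6 Gy + INDO effect between days, and without day 23 it was 2 for the interaction (1). Leaving out 1 tumor gave 3 to 5 members after 6 Gy on day 1, 0 to 3 after 6 Gy on day 3, 1 to 2 with INDO on day 3, and with 6 Gy + INDO 2 to 4 on day 3 and 2 to 5 on day 7, and 1 against 6 Gy without 6 Gy replicate 3 of day 15. The Cxcl2 log2 fold change after 6 Gy on day 3 was 0.62, and -1.49 to 1.08 with each tumor left out; without 6 Gy replicate 1 it was -1.49.

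Housekeeping scaling moved the median of all genes by -0.061 to 0.543 on the log2 scale, by over 0.1 in 15 of 21 comparisons, and member values moved beyond that shift by -0.21 to 0.2. The share of calls that were higher moved by over 10 points with it, to 81.8% (49.1% with TMM) for INDO and 91.9% (56%) for 6 Gy + INDO as means over days.

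Replicate numbers did not pair the tumors: 46 of 132 same-numbered pairs had r over 0.1, and 24 of 94 tumors correlated best with their own number. With the number as a replicate block 240 of 252 values were unchanged in call, 9 were lost and 3 gained, and counts were 1 for 6 Gy + INDO against 6 Gy, 2 among days in controls and 2 for INDO on day 3.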
